A study of Mus musculus with 4 samples.

Results

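MicroRNAs were compared in metastases of mice whose primary tumour had received 10 Gy and in metastases of mice whose primary tumour had received sham radiation, with 1 microarray for each. These are 2 of the 4 arrays of the series and were chosen by their titles. The other arrays hold the irradiated and the sham-treated primary tumours. Each array carried 700 mouse microRNA probes with 5 spots each.

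Per the labels, 20 female mice, of a strain spelled Balb/s there, received 50000 4T1 cells in the mammary gland. The line 4T1 is a mouse mammary carcinoma line that spreads to distant organs after growth at this site. Once the tumour measured 1 cm3 the primary was given 10 Gy in 10 mice and sham radiation in the other 10, mastectomy followed, and the metastases were left until the end point. Radiation was thus aimed at the primary tumour in the treated arm, and every animal of both arms carried 4T1 cells and lost its primary to surgery. Which organ held the metastases is not in the labels, nor is the number of mice behind each RNA sample. With 1 array per arm the difference between arms has no replicate check, and treatment, animal, organ and chip cannot be told apart. No test was made and no p-value is given.

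MicroRNAs are short RNAs that guide Argonaute proteins to messenger RNAs, which are then repressed or degraded. Target choice rests mainly on the seed, a short stretch near the 5′ end, so that microRNAs with the same seed form a family with overlapping targets. Several are so restricted to 1 tissue, such as muscle, liver or skin, that they serve as markers of it, and others, such as miR-21 and the let-7 family, are widely studied in tumour growth and spread. In bulk tissue, fewer cells of a type and less of a microRNA per cell cannot be told apart.

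The sequences behind the main differences are shown here, from RefSeq on build GRCm38.p6, written 5′ to 3′. In the first 3 sets the capitals mark the seed, bases 2 to 8. The first set holds the tissue-restricted microRNAs that were higher after an irradiated primary and whose sequence can be printed. The gene of miR-206, a skeletal muscle microRNA, lies at chr1:20679055-20679076 on the plus strand within the long noncoding RNA Lincmd1, 3757 bases from that of miR-133b. The keratinocyte microRNA miR-203 lies at chr12:112130927-112130948 on the plus strand, and miR-205, of stratified and mammary epithelium, at chr1:193507503-193507524 on the minus strand within the noncoding gene Mir205hg.
miR-206: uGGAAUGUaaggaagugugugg
miR-203: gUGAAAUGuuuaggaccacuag
miR-205: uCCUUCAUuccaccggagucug

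The second set shows 2 families in which members with the same seed differed in the comparison. The let-7 family restrains growth genes such as Ras, Hmga2 and Lin28, and the miR-29 family represses collagens and other matrix genes. One of the genes of let-7a lies at chr13:48538239-48538260 on the minus strand, and that of miR-98 at chrX:151913229-151913250 on the plus strand within the protein-coding gene Huwe1. Counted from 1 at the 5′ end of let-7a, miR-98 differs from it by G11A and A19U. The gene of miR-29a lies at chr6:31062673-31062694 on the minus strand and that of miR-29c at chr1:195037600-195037621 on the plus strand, and the mature forms differ by C10U, counted on miR-29a. The same miR-29b is made from genes at chr1:195037091-195037113 and chr6:31063025-31063047.
let-7a: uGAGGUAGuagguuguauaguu
miR-98: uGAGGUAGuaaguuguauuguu
miR-29a: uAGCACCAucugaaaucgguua
miR-29b: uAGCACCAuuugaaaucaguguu
miR-29c: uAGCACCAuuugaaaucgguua

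The third set holds other microRNAs that were lower after an irradiated primary, and miR-21, the subject of the series. Those of miR-671-5p, at chr5:24592132-24592154 within Chpf2, of miR-1956, at chr3:138526425-138526446 within Eif4e, and of miR-546, at chr10:126998471-126998486 within Ctdsp2, are read from the plus strand. The gene of miR-21 lies at chr11:86584120-86584141 on the minus strand within Vmp1.
miR-671-5p: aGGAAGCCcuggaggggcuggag
miR-1956: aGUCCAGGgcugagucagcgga
miR-546: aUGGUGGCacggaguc
miR-21: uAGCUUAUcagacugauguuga

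The last set shows probes whose targets are rich in alternating U and G, most of which were higher after an irradiated primary. Here the capitals mark the longest stretch in which U and G alternate. The genes lie at chr10:60960802-60960824 for miR-466j, at chr9:115381898-115381919 for miR-467h and at chr5:64970328-64970350 for miR-574-5p, all on the plus strand, the last within the spans of Fam114a1 and Tlr6. That of miR-1187 lies at chr5:82798964-82798986 on the minus strand.
miR-466j: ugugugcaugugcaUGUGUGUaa
miR-467h: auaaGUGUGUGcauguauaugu
miR-574-5p: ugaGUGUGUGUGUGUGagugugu
miR-1187: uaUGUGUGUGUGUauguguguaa

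Levels below are the mean fluorescence of a probe's 5 spots above the median of the 180 empty spots of the same array, in scanner units, with the SD over the 5 spots. A microRNA was called detected when 3 or more of the 5 spots lay above the 95th percentile of the empty spots, a limit that was 24.1 units above their median on the array of the irradiated arm and 18.1 units above it on the sham array. The empty spots themselves had medians of 252.4 units in the irradiated arm and 177.2 units in the sham arm. By this rule 339 microRNAs (48.4% of the 700) were detected in metastases after an irradiated primary, against 459 (65.6%) after a sham-treated primary. Both arrays detected 317, the irradiated arm alone 22, the sham arm alone 142, and neither 219. The 22 detected in the irradiated arm alone were all dim, with a highest level of 38.5 units, whereas those of the sham arm alone reached 397 units with a median of 28.9 units.

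The spots of the irradiated arm scattered more at every level. Among detected microRNAs the median coefficient of variation of the 5 spots was 33.8% in the irradiated arm and 18.2% in the sham arm. Above 1000 units it was 12.6% over 95 microRNAs after an irradiated primary and 3.96% over 114 after a sham-treated primary. Below 100 units it was 82.1% over 160 microRNAs in the irradiated arm and 35.0% over 229 in the sham arm. Part of the scatter followed position on the chip: in the order of the chip the 5 spots of bright probes had medians of 1.11, 1.01, 0.869, 0.886 and 1.05 times the probe mean in the irradiated arm, against 1.01, 0.995, 0.969, 1.00 and 1.02 times in the sham arm. The empty spots also followed chip row, with a Pearson correlation of -0.52 over the 180 empty spots of the irradiated array and 0.17 on the sham array.

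The irradiated array was dimmer as a whole. Its detected microRNAs summed to 671697 units, against 1125800 units on the sham array, and without any scaling the median of the 317 log2 differences was -0.87. Of 43 calibration spike probes on the chip, 18 stood above the empty spots on both arrays, and all 18 were lower on the irradiated array, by -0.07 to -3.76 on the log2 scale with a median of -0.87. The spike probe PUC2PM gave 10443 units on the irradiated array and 10940 on the sham array, whereas Ctr09-3M10 gave 1045 units on the irradiated array and 8952 on the sham array. The same-numbered Ctr09-3P gave 29655 units on the irradiated array and 39929 on the sham array. Ctr05-3M10, Ctr09-3M05 and Ctr09-3M10 stood apart at -3.54, -3.76 and -3.10, and the other spike probes lay between -1.22 and -0.07. The 5 probes for 5S ribosomal RNA differed little, from -0.37 to 0.30 on the log2 scale. How the spikes were added is not in the labels, and their part in the microRNA differences was not tested.

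**Figure D1:**
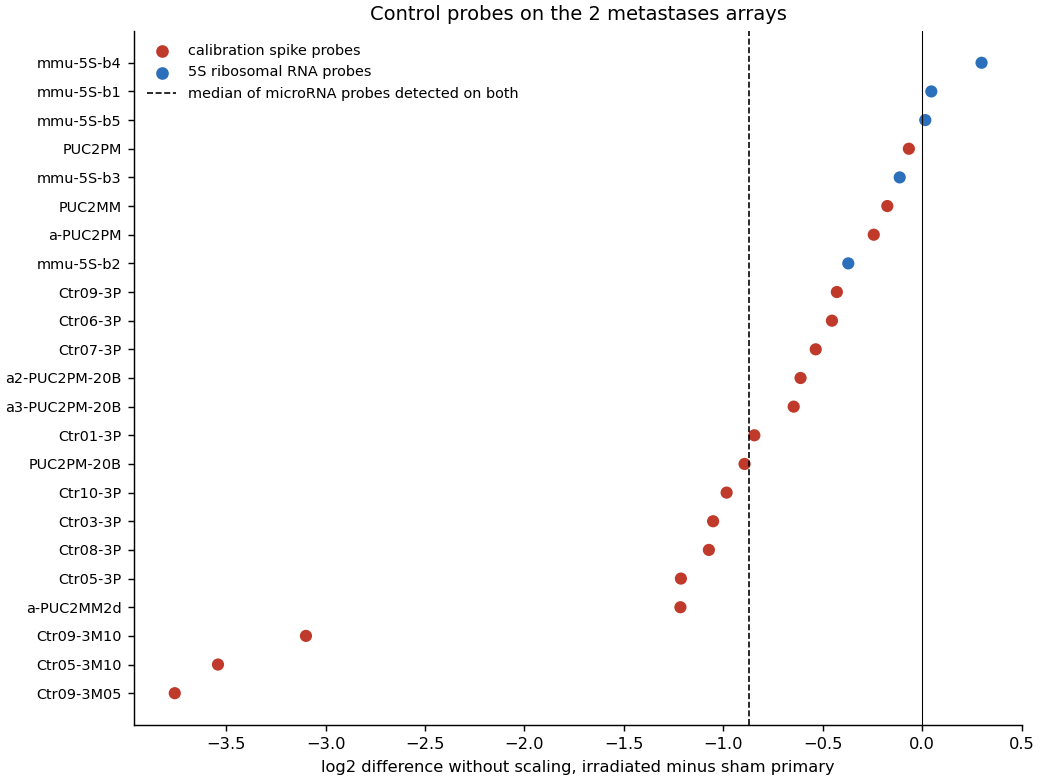
Log2 difference, irradiated minus sham primary, without scaling (x axis) for each control probe above the empty spots on both metastases arrays (rows); red points are calibration spike probes, blue points 5S ribosomal RNA probes, and the dashed line is the median of the microRNA probes. All 18 spike probes lie below 0, with a median of -0.87 that falls on the dashed line, while the 5S probes lie between -0.37 and 0.30.

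The log2 differences below are irradiated minus sham arm after quantile scaling, which gives the microRNA probes of both arrays the same distribution. After it the median of the 317 log2 differences was 0. The scaled differences are relative to the other microRNAs, and unscaled values are named as such. The error after ± is the standard error from the 5 spots of each array and covers scatter within the 2 chips only. On this scale 44 of the 481 microRNAs detected on at least 1 array were at least 2-fold higher (9.15%) and 50 were at least 2-fold lower (10.4%) after an irradiated primary. Of the 317 detected on both arrays, 30 were 2-fold higher or more (9.46%), 27 lower by as much (8.52%), and the other 260 stayed within 2-fold. The 5 spots of the arrays did not overlap for 18 of those higher (5.68%) and 22 of those lower (6.94%). The rest of the counts come from bounds, 14 higher and 23 lower, for microRNAs detected on 1 array, where the brighter level is set against the dim level or, if that is higher, against the lowest level of any detected probe.

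The bulk of the microRNAs ran close together. From the lower to the upper quartile the 317 log2 differences spanned -0.43 to 0.42, their SD was 1.05, and the log2 levels of the arrays correlated with a Pearson r of 0.94 and a Spearman rho of 0.93 across these microRNAs, which are not independent replicates. The median standard error from spots was 0.22. Against this, 7 microRNAs were higher by more than 3 on the log2 scale, none lay between 2 and 3, 5 were lower by at least 2, and none by 3. Without scaling and with 5S scaling the count of higher microRNAs drops to 9 and 10 and the count of lower ones grows to 227 and 218, so the split between higher and lower depends on the scaling. The 7 highest were at least 2-fold higher under every setting tried that gave them a value.

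**Figure D2:**
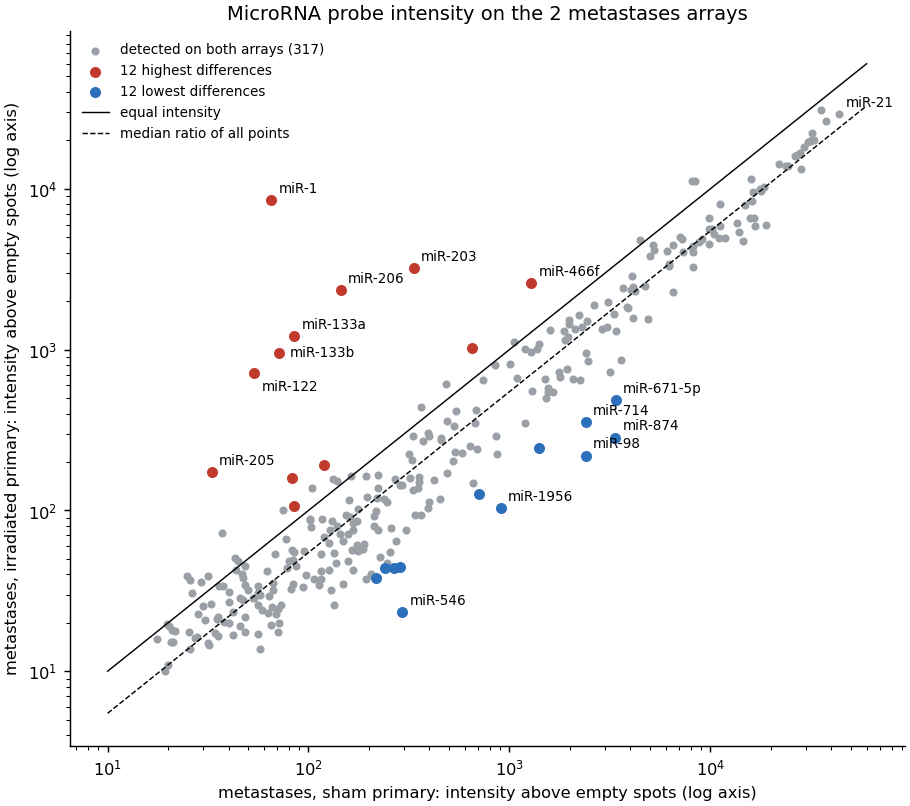
Intensity above the empty spots, without scaling, in metastases after an irradiated primary (y axis, log) against metastases after a sham-treated primary (x axis, log) for the 317 microRNAs detected on both arrays. Red and blue points are the 12 highest and 12 lowest scaled differences whose spots do not overlap after scaling, the solid line is equality and the dashed line the median ratio. The 7 highest, from miR-205 to miR-1, stand apart from the cloud, and most of the cloud lies under the line of equality.

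Muscle microRNAs gave the largest differences. The 4 members of the muscle list that were detected, miR-1, miR-206, miR-133a and miR-133b, were all at least 2-fold higher after an irradiated primary, and their median log2 difference was 4.78, against 0 over all 317. In muscle, miR-1 and miR-206 favour differentiation of muscle precursor cells and miR-133 their growth. Summed over the 7 members on the array, the list had 13007 units in the irradiated arm and 411 units in the sham arm.

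The 5 spots of miR-1 read 9273, 7923, 6664, 9087 and 9398 units in metastases after an irradiated primary, against 71.4, 53.3, 49.3, 72.6 and 80.6 units after a sham-treated primary. Its mean was 8469 ± 1167 units in the irradiated arm and 65.4 ± 13.4 units in the sham arm (SD, 5 spots each), and its log2 difference of 7.96 ± 0.16, or 248.5-fold, was the largest on the array. No spot of the irradiated arm came near any of the sham arm, where the detection limit was 18.1 units. The size of the difference depended on the background and the scaling: it was 7.02 without scaling and lay between 5.56 and 8.15 over 13 settings.

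The other detected muscle microRNAs were among the 5 highest, with miR-122 between them. For miR-206, which is restricted to skeletal muscle, the spots read 2858, 2252, 1818, 2506 and 2354 units in the irradiated arm, against 189.6, 126.7, 100.4, 117.6 and 189.6 units in the sham arm, a log2 difference of 4.86 ± 0.21. The spots of miR-133a read 1361, 1080, 1372, 1126 and 1123 units in the irradiated arm, against 63.6, 85.7, 82.3, 88.4 and 103.8 units in the sham arm, a log2 difference of 4.71 ± 0.13. Neither set of spots overlapped between arms. Its near-identical relative miR-133b, which differs by a single base, had 947 ± 105 units in the irradiated arm and 71.0 ± 9.88 units in the sham arm, a log2 difference of 4.61 ± 0.11, and its probe could share signal with miR-133a.

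The members of the list tied to the myosin genes of heart and slow muscle were not detected on either array. They had 5.34 units in the irradiated arm and 16.7 in the sham arm for miR-208a, 9.43 units in the irradiated arm and 21.4 in the sham arm for miR-208b, and 5.99 units in the irradiated arm and 7.14 in the sham arm for miR-499. Among the 18 microRNAs that were 2-fold higher with separate spots, miR-1 and miR-206 share a seed, as do miR-133a and miR-133b, and, of the repeat family, miR-466h and miR-466j.

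The microRNAs of the skin list and 1 liver microRNA, miR-122, were also higher after an irradiated primary. Both members of the skin list were at least 2-fold higher. For miR-203, which drives keratinocytes out of the cell cycle by repressing p63, the spots read 3950, 3251, 2487, 3365 and 3028 units in the irradiated arm and 310.8, 349.9, 280.4, 292.3 and 434.2 units in the sham arm, a log2 difference of 4.00 ± 0.16. For miR-205 they read 193.8, 190.6, 110.4, 220.6 and 152.5 units in the irradiated arm and 20.6, 45.5, 15.1, 24.9 and 58.9 units in the sham arm, a log2 difference of 3.41 ± 0.39. The sham spots of miR-205 lie on both sides of the detection limit of 18.1 units, and over 12 settings its log2 difference ran from 1.00 to 3.58.

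The liver microRNA miR-122 had spots of 748, 793, 597, 582 and 863 units in the irradiated arm and 40.05, 52.2, 44.8, 74.7 and 57.2 units in the sham arm, a log2 difference of 4.70 ± 0.20. It stood alone in its list. Of the other members, found in liver and gut epithelium, miR-192 had 118 ± 32.0 units in the irradiated arm and 237 ± 39.9 units in the sham arm, a log2 difference of 0.00 ± 0.21. The level of miR-194 was 71.1 ± 41.3 units in the irradiated arm and 158 ± 7.95 units in the sham arm, a log2 difference of -0.11 ± 0.38. For miR-148a the log2 difference was -0.91 ± 0.23, and miR-215 was not detected. The median of the 4 detected members was -0.06.

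The 7 highest microRNAs are thus ones used as markers of muscle, stratified epithelium or liver, and the labels name none of these tissues. Liver rests on miR-122 alone, since the other detected members of its list were not higher. In the sham-treated primary tumour miR-206 had 9444 units, while miR-1, miR-133a and miR-133b had 45.1, 51.2 and 45.2 units, so miR-206 did not follow them there. Of the 7, miR-205 is also a microRNA of mammary epithelium, and the labels do name the mammary gland, as the site of injection. Whether RNA of any of these tissues in the sample has a part in the differences was not tested.

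**Figure D3:**
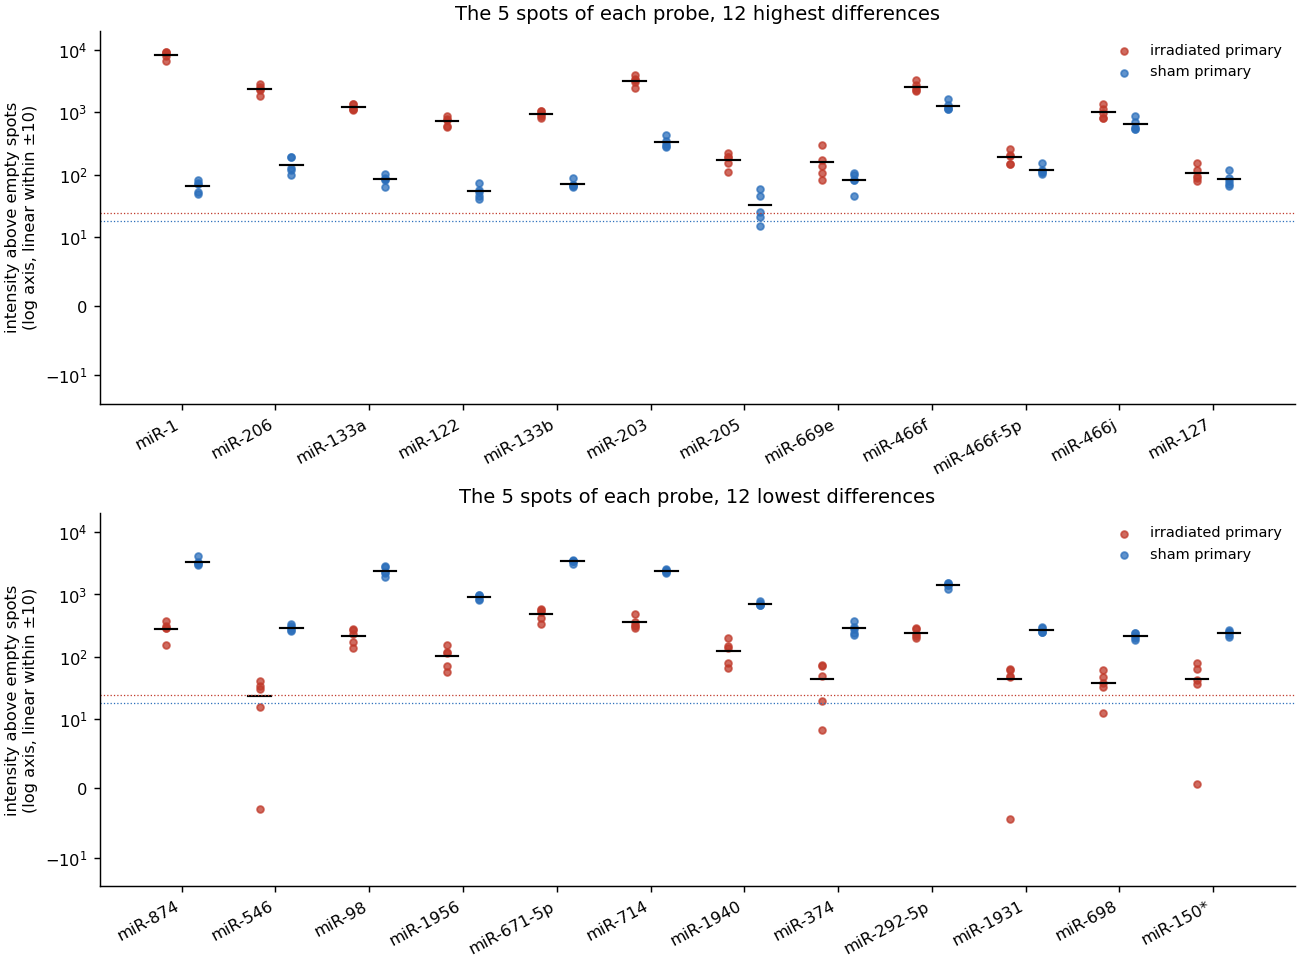
The 5 spots of each probe (points, y axis: intensity above the empty spots without scaling, log axis that is linear within ±10) for the 12 highest (top) and 12 lowest (bottom) log2 differences among microRNAs detected on both arrays whose scaled spots do not overlap; red is the irradiated and blue the sham arm, black bars are means, and dotted lines are the detection limits of 24.1 and 18.1 units. For miR-1, miR-133a, miR-133b, miR-122 and miR-205 the sham spots lie at 103.8 units or below, whereas among the lowest it is the irradiated arm that is dim, with means of 44.3 units or less for miR-546, miR-374, miR-1931, miR-698 and miR-150*.

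Below these 7 came a group of repeat-derived microRNAs. The miR-297, miR-466, miR-467 and miR-669 family is made in mouse largely from a repeat-rich cluster in an intron of Sfmbt2. Many of its targets, but not all, are rich in U and G. Of its 48 probes 37 were detected on at least 1 array. Counting bounds, 15 were 2-fold higher or more and 2 were lower by as much after an irradiated primary, beside 9.15% higher and 10.4% lower over the 481. The upward bounds among the 15 came from means of 13.9 to 17.5 units in the irradiated arm, below its limit of 24.1 units. Unscaled, their log2 bounds were 0.49 to 0.83. Of the 18 detected on both arrays 9 were at least 2-fold higher, against 9.46% of all 317, and 0 were lower. A positive difference was found for 17 of the 18, beside 152 of all 317, and the median of the 18 was 0.95. Without scaling that median was 0.11, above the median of all 317 of -0.87. Separate spots after scaling were found in the family for miR-466f, miR-466f-5p, miR-466h, miR-466j and miR-669e only. Of the others called higher, miR-467h, miR-466d-5p and miR-669d were dim in the sham arm, with 24.7, 29.2 and 37.0 units. Over all microRNAs with sham levels of 17.5 to 63.6 units the scaled median was 0.39, and from 65.4 to 166 units it was 0.18.

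The brightest member was miR-466f, with spots of 3342, 2243, 2162, 2425 and 2778 units in the irradiated arm and 1326, 1168, 1140, 1120 and 1663 units in the sham arm. Its spots did not overlap even without scaling, and its log2 difference was 1.80 ± 0.17 scaled and 1.01 unscaled. For miR-466j the mean was 1024 ± 243 units in the irradiated arm and 648 ± 144 units in the sham arm, a log2 difference of 1.57 ± 0.21. The level of miR-466f-5p was 192 ± 46.9 units in the irradiated arm and 119 ± 20.2 units in the sham arm, a log2 difference of 1.68 ± 0.19. That of miR-669e was 159 ± 84.6 units in the irradiated arm, with single spots from 81.6 to 297.9 units, and 83.0 ± 23.0 units in the sham arm, a log2 difference of 1.99 ± 0.39. The smallest called difference of the named members was that of miR-466h, at 1.06 ± 0.24. Except for miR-466f, each of these was under 2-fold under at least 1 setting. The sequences of this family are close, so single members are uncertain.

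Targets were also grouped by their longest stretch of alternating U and G, which overlaps the family. The length of the stretch was read for the microRNAs detected on both arrays, and the classes were drawn after the values had been seen. The 12 with a stretch of at least 8 bases had a median log2 difference of 1.17, with 7 of them (58.3%) at least 2-fold higher and 0 lower. Of these 12, 9 belong to the family and 3 lie outside it, so most of this class is the family again. The 7 with a stretch of 6 or 7 bases had a median of 1.48 with 6 higher. This class holds miR-206 and also family members, miR-466j and miR-467h among them, so it too overlaps the family. The 53 with 4 or 5 bases had a median of 0.03 with 6 higher. The 245 with a stretch under 4 bases had a median of -0.02, with 11 (4.49%) higher and 25 lower. Outside the family, miR-574-5p, with a stretch of 13 bases, had 11178 ± 1321 units in the irradiated arm and 8387 ± 497 units in the sham arm, a log2 difference of 1.12 ± 0.09. With a stretch of 11 bases, miR-1187 had 11229 ± 1651 units in the irradiated arm and 8127 ± 521 units in the sham arm, a log2 difference of 1.22 ± 0.10. Before scaling the log2 differences of miR-574-5p and miR-1187 were 0.41 and 0.47. The last of the 3 outside the family, miR-672, with a stretch of 8 bases, had 1003 ± 327 units in the irradiated arm and 1190 ± 194 units in the sham arm. Its spots overlapped between arms, and its log2 difference was 0.64 ± 0.24 scaled and -0.25 unscaled. Across the 317 the stretch length correlated with the log2 difference with a Pearson r of 0.23 and a Spearman rho of 0.11, and for GC content these were -0.06 and 0.11. Of the 68 targets with a GC content of at least 60%, 1 was higher and 9 were lower by 2-fold or more, and of the 38 with a GC content under 40%, 4 were higher and 8 lower, beside 9.46% higher and 8.52% lower over all 317.

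The last of the 12 highest was miR-127, an imprinted microRNA of the Rtl1 locus, with 107 ± 30.0 units in the irradiated arm and 84.5 ± 20.5 units in the sham arm, a log2 difference of 1.36 ± 0.24. Its unscaled spots overlapped between arms and its unscaled difference was 0.34. The largest bound upward was that of miR-124, a neuronal microRNA, at 38.5 ± 20.8 units in the irradiated arm, against an undetected 16.4 ± 11.7 units in the sham arm, at least 4.60-fold higher on the scaled values. Its unscaled log2 bound was 1.23, and over 12 settings the bound lay between 0.26 and 2.74. The scaled bounds of miR-669k, miR-669g and miR-154 were at least 3.32-fold, 3.24-fold and 3.03-fold higher, from levels of 17.5, 16.96 and 20.3 units in the irradiated arm. These means lie below the limit of 24.1 units that 3 of their spots passed. Unscaled, the log2 bounds were 0.83, 0.78 and 0.68 for miR-669k, miR-669g and miR-154, and under at least 1 setting they fell to 0.11, 0.11 and 0.13, so that none of these 4 upward bounds held at 2-fold under every setting.

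Among the lower microRNAs, miR-874 and miR-98 had the largest differences at a good level. The spots of miR-874 read 378, 288, 157, 287 and 309 units in metastases after an irradiated primary, against 3119, 3010, 3232, 3313 and 4179 units after a sham-treated primary. Every sham spot stood far above every spot of the irradiated arm, and the log2 difference was -2.74 ± 0.20 scaled and -3.57 unscaled. Over 13 settings it lay between -3.57 and -2.22.

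The spots of miR-98 read 284, 229, 173, 138 and 273 units in the irradiated arm, against 2809, 2179, 1873, 2862 and 2297 units in the sham arm, a log2 difference of -2.62 ± 0.22 with a range of -3.45 to -2.005 over 13 settings. Its relatives did not follow it. The other 8 members of the let-7 family on the array differ from it in 2 to 4 positions and share its seed, and their log2 differences ran from -0.17 to 0.20. The level of let-7a was 20052 ± 1897 units in the irradiated arm and 32800 ± 1107 units in the sham arm, a log2 difference of -0.08 ± 0.06, or -0.71 unscaled. The median of the 9 family members was 0.00, and 1 of them, miR-98, was at least 2-fold lower. How far the probes of such close sequences share signal was not tested.

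The miR-29 family split in a similar way. The level of miR-29a was 9566 ± 1010 units in the irradiated arm and 16222 ± 392 units in the sham arm, a log2 difference of 0.00 ± 0.07. For miR-29b the mean was 148 ± 42.3 units in the irradiated arm and 662 ± 108 units in the sham arm, a log2 difference of -1.23 ± 0.21. For miR-29c, a single base from miR-29a, it was 731 ± 142 units in the irradiated arm and 3165 ± 556 units in the sham arm, a log2 difference of -1.17 ± 0.17. The spots of miR-29b and of miR-29c did not overlap between arms.

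Of the remaining lowest microRNAs, 4 kept a difference of at least 2-fold under every setting. For miR-671-5p the means were 484 ± 107 units in the irradiated arm and 3384 ± 195 units in the sham arm, a log2 difference of -2.10 ± 0.15. For miR-1956 they were 104 ± 39.9 units in the irradiated arm and 904 ± 75.1 units in the sham arm, a log2 difference of -2.19 ± 0.25. The spots of the 2 arms were far apart for both. The level of miR-714 was 356 ± 77.2 units in the irradiated arm and 2405 ± 139 units in the sham arm, a log2 difference of -1.88 ± 0.14. That of miR-292-5p was 245 ± 41.7 units in the irradiated arm and 1411 ± 117 units in the sham arm, a log2 difference of -1.62 ± 0.12.

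The other 6 of the 12 lowest did not hold at 2-fold under every setting. For miR-546 the level was 23.4 ± 17.4 units in the irradiated arm and 293 ± 26.4 units in the sham arm, a log2 difference of -2.65 ± 0.48 that ran from -3.65 to -0.81 over the settings. The log2 differences of miR-1940, miR-374, miR-1931, miR-698 and miR-150* lay between -1.63 and -1.38 with standard errors of 0.28 to 0.45, and each was under 2-fold under at least 1 setting. The largest bound downward was that of miR-1898, with 17.7 ± 22.8 units in the irradiated arm, not detected, and 397 ± 31.5 units in the sham arm, at least 11.8-fold lower. It was at least 2-fold lower under every setting. The bounds of miR-669a, miR-1901 and miR-450a-5p were at least 5.04-fold, 4.34-fold and 3.79-fold lower on the scaled values, but none held at 2-fold under every setting, with log2 bounds that reached -0.23, 0.00 and -0.32. The sham level of miR-1901 rests on 1 spot of 427 units, with the other spots between 21.4 and 41.2 units.

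The brightest microRNAs differed little. For miR-21, which represses the tumour suppressor Pdcd4 and is the subject of the series, the spots read 31987, 28193, 24493, 32568 and 28784 units in metastases after an irradiated primary, against 43482, 43510, 43307, 43534 and 44470 units after a sham-treated primary. It ranked second on the irradiated array and first on the sham array. Its unscaled spots did not overlap, with a log2 difference of -0.58, but after scaling they did, and the difference was -0.16 ± 0.07. Over 13 settings the difference of miR-21 lay between -0.58 and 0.47. The low end is the value without scaling, where the median of all microRNAs was -0.87, and so is not relative to the other microRNAs. Relative to them the sign depended on the scaling, with 0.29 after scaling by the median ratio and -0.17 after quantile scaling over 4 arrays. Its passenger strand miR-21* was detected on the sham array alone, with 5.54 ± 23.6 units in the irradiated arm and 33.1 ± 26.8 units in the sham arm, at least 2.63-fold lower, a bound that reached 0.00 under at least 1 setting. The sham mean of miR-21* leans on 1 spot of 80.5 units, with the others at 17.2, 23.9, 17.1 and 26.5 units, near the limit of 18.1 units.

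The other 9 of the 10 brightest were miR-709, miR-2142, let-7a, let-7c, let-7f, miR-762, miR-126-3p, miR-125b-5p and miR-26a. Their scaled log2 differences lay between -0.11 and 0.27, and 4 of them had the same rank on both arrays, which quantile scaling turns into a difference of exactly 0.00. For miR-2142 the means were 31058 ± 3958 units in the irradiated arm and 35443 ± 431 units in the sham arm.

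MicroRNAs of the cells that tumours and host organs hold are given next, beside 9.15% higher and 10.4% lower over the 481. The miR-200 family, which keeps cells epithelial by repressing Zeb1 and Zeb2, was detected in full: 0 of 5 members were 2-fold higher or lower, and the median log2 difference was -0.48. Its bright member miR-200c had 2417 ± 200.3 units in the irradiated arm and 3685 ± 105 units in the sham arm, a log2 difference of 0.12 ± 0.06, whereas miR-200b had 955 ± 106 units in the irradiated arm and 2413 ± 124 units in the sham arm, a log2 difference of -0.48 ± 0.08. In the epithelial miR-183 cluster, miR-183 and miR-182 had log2 differences of -0.23 ± 0.14 and 0.11 ± 0.09, and miR-96 was not detected.

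The lung and airway list, with the miR-30 family and the ciliated cell microRNAs miR-34 and miR-449, was detected in all 11 members. Of these, 0 were 2-fold higher or lower, the 9 detected on both arrays all had negative log2 differences, from -0.95 to -0.10, and their median was -0.38. Over all 317 microRNAs detected on both arrays, 152 had a positive difference and the median was 0. For miR-30b the means were 6560 ± 1112 units in the irradiated arm and 16509 ± 591 units in the sham arm, a log2 difference of -0.38 ± 0.11. Those of miR-30a and miR-30d, at -0.10 ± 0.08 and -0.22 ± 0.09, turned positive under the 75th percentile of all probes as the scaling. The summed level of the list was 25720 units in the irradiated arm and 57906 units in the sham arm.

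Of the blood cell lists, that of leukocytes was the lower. The lymphocyte microRNA miR-150, which represses Myb, had spots of 922, 769, 712, 942 and 977 units in the irradiated arm and 3596, 3307, 3616, 3622 and 3814 units in the sham arm, without overlap. Its log2 difference was -1.18 ± 0.09, with a range of -2.05 to -1.001. For miR-155, of activated lymphocytes and macrophages, the means were 653 ± 171 units in the irradiated arm and 2083 ± 254 units in the sham arm, a log2 difference of -0.83 ± 0.19. For the neutrophil microRNA miR-223 they were 4050 ± 492 units in the irradiated arm and 7354 ± 781 units in the sham arm, a log2 difference of -0.21 ± 0.10 whose sign turned under another scaling. Of the 5 detected leukocyte microRNAs 1 was 2-fold lower and 0 higher, and the median of the 4 on both arrays was -0.68. Red cell microRNAs were within 2-fold, with log2 differences of -0.09 ± 0.05 for miR-451 and 0.45 ± 0.09 for miR-486. The endothelial miR-126-3p, made from an intron of Egfl7, had a log2 difference of 0.08 ± 0.06, and its partner strand miR-126-5p was detected on the sham array alone, at least 2.27-fold lower on the scaled values, with a log2 bound between -2.27 and -0.24 over 13 settings.

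Of the 9 fibroblast and smooth muscle microRNAs on the array, 0 were 2-fold higher and 2 were 2-fold lower, miR-29b and miR-29c. The smooth muscle pair miR-143 and miR-145 had log2 differences of 0.46 ± 0.07 and 0.24 ± 0.07, which were below 0 without scaling. The fibroblast microRNA miR-199a-3p had a log2 difference of -0.24 ± 0.08, and the median of the list was -0.07. In the neural list of 3, miR-124 was higher by its bound, miR-9 was lower and miR-128 had a log2 difference of 0.06 ± 0.17.

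**Figure D4:**
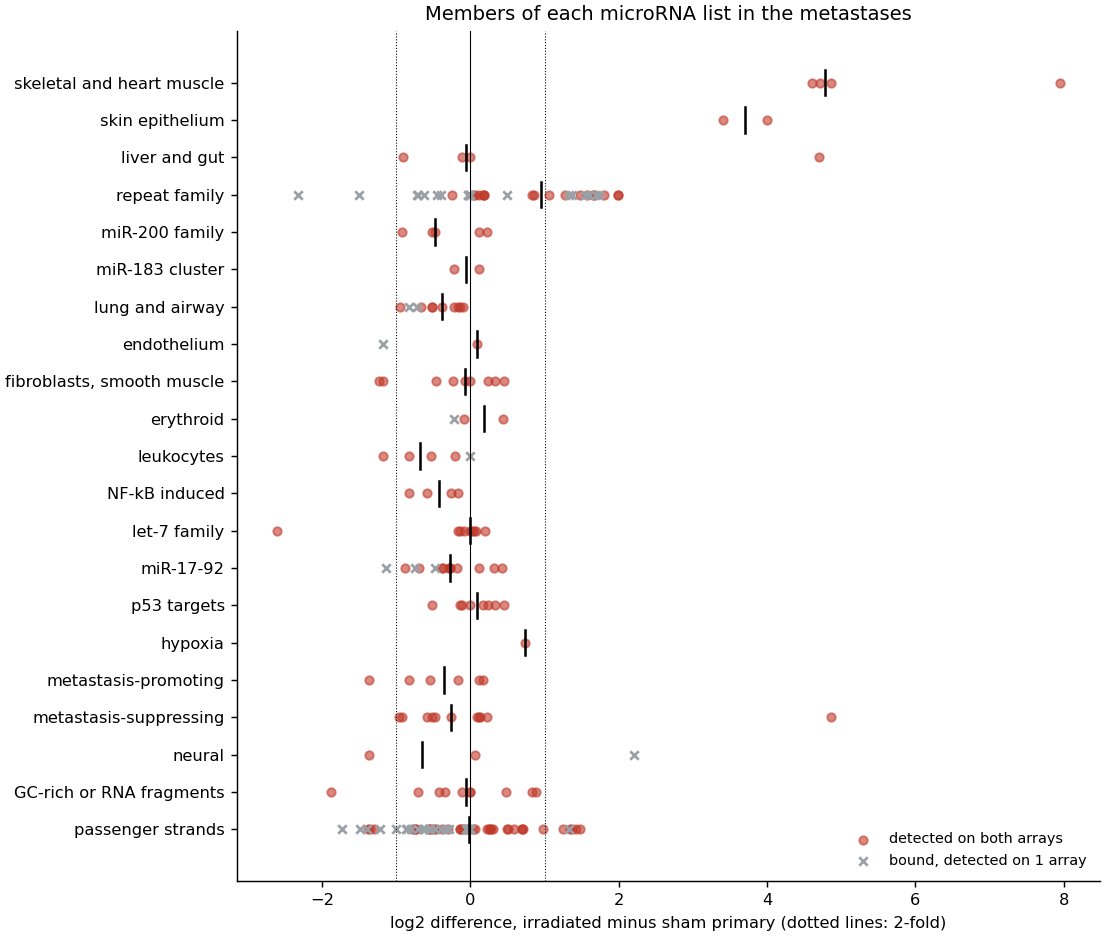
Log2 difference, irradiated minus sham primary, after quantile scaling (x axis) for each detected member of the 21 microRNA lists (rows); red points were detected on both arrays, grey crosses are bounds from 1 array, black bars are medians over the red points and dotted lines mark 2-fold. The muscle list has a median of 4.78 and the skin list one of 3.71, the repeat family reaches 0.95, and the lung and leukocyte lists lie below 0 at -0.38 and -0.68.

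Lists tied to stress and to spread are small, and their counts past 2-fold stand beside 9.15% higher and 10.4% lower over the 481. Of the 8 detected targets of p53, 0 were 2-fold higher or lower, with a median log2 difference of 0.09, and miR-34a, which p53 induces and which halts the cell cycle, had 270 ± 32.0 units in the irradiated arm and 373 ± 45.6 units in the sham arm, a log2 difference of 0.33 ± 0.11. The hypoxia microRNA miR-210 had 288 ± 55.0 units in the irradiated arm and 329.6 ± 15.7 units in the sham arm, and its log2 difference of 0.73 ± 0.13 was -0.19 without scaling. Of the 4 microRNAs induced by NF-kB, 0 were past 2-fold, and miR-146a, which dampens NF-kB signalling through Traf6 and Irak1, had a log2 difference of -0.59 ± 0.11. In the growth-promoting miR-17-92 cluster and its paralogs, 1 of 14 detected members was 2-fold lower, by a bound, and 0 were higher, with a median of -0.28.

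Of 6 metastasis-promoting microRNAs 0 were 2-fold higher and 1 was 2-fold lower. That was miR-9, which represses E-cadherin, at 25.6 ± 24.9 units in the irradiated arm and 134.6 ± 37.4 units in the sham arm, a log2 difference of -1.37 ± 0.65 that rests on a level at the detection limit. The log2 difference of miR-10b was -0.55 ± 0.30, and those of miR-103 and miR-107 were 0.12 ± 0.09 and 0.17 ± 0.09. Of 11 metastasis-suppressing microRNAs 1 was 2-fold higher, the muscle microRNA miR-206, and 0 were lower. For miR-31, which restrains invasion of breast cancer cells, the means were 4497 ± 529 units in the irradiated arm and 6526 ± 256 units in the sham arm, a log2 difference of 0.14 ± 0.08.

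Among the 67 detected passenger strands, 6 were 2-fold or more higher and 8 lower, bounds included, close to the 9.15% and 10.4% over the 481, and the median of the 39 on both arrays was -0.02. The bright let-7d* and miR-140* had log2 differences of -0.77 ± 0.14 and 0.51 ± 0.08. Of 10 probes for GC-rich targets or fragments of other RNAs, 1 was 2-fold lower, miR-714, and 0 were higher.

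The same steps on the primary tumours, which share no array with the metastases, gave values to set beside these. The irradiated primary array had a detection limit 57.7 units above its empty median, against 20.7 units on the sham-treated primary array. It detected 186 microRNAs, against 337, and these summed to 554862 units, against 1108070 units. The muscle microRNAs miR-1, miR-133a and miR-133b were higher in the irradiated primary too. There miR-1 had 1794 ± 485 units in the irradiated and 45.1 ± 15.9 units in the sham-treated primary, a log2 difference of 6.41, and miR-133a and miR-133b had log2 differences of 4.52 and 4.02. Their relative miR-206 ran the other way in the primary, with 1478 ± 284 units in the irradiated and 9444 ± 1176 units in the sham-treated tumour, a log2 difference of -1.22. Neither miR-122 nor miR-205 was detected in either primary tumour, and miR-203 was dim, with 9.12 units, not detected, in the irradiated and 55.5 units in the sham-treated primary.

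Several microRNAs that were lower in metastases of the irradiated arm were also lower in the irradiated primary. The log2 differences there were -2.95 ± 0.26 for miR-874, -3.14 ± 0.31 for miR-1956 and -1.44 ± 0.06 for miR-671-5p. Unscaled they were -4.28, -4.56 and -2.92, on an irradiated primary array that was dimmer as a whole. In the irradiated primary miR-98 was not detected, with a mean of -5.87 units and a detection limit of 57.7 units. It had 401 units in the sham-treated primary, a scaled log2 bound of -1.90. The repeat family ran the other way, with log2 differences of -3.76 for miR-466f and -3.36 for miR-466j in the primary. Whether the differences at the 2 sites differ was not tested, with 1 array for each arm and site.

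**Figure D5:**
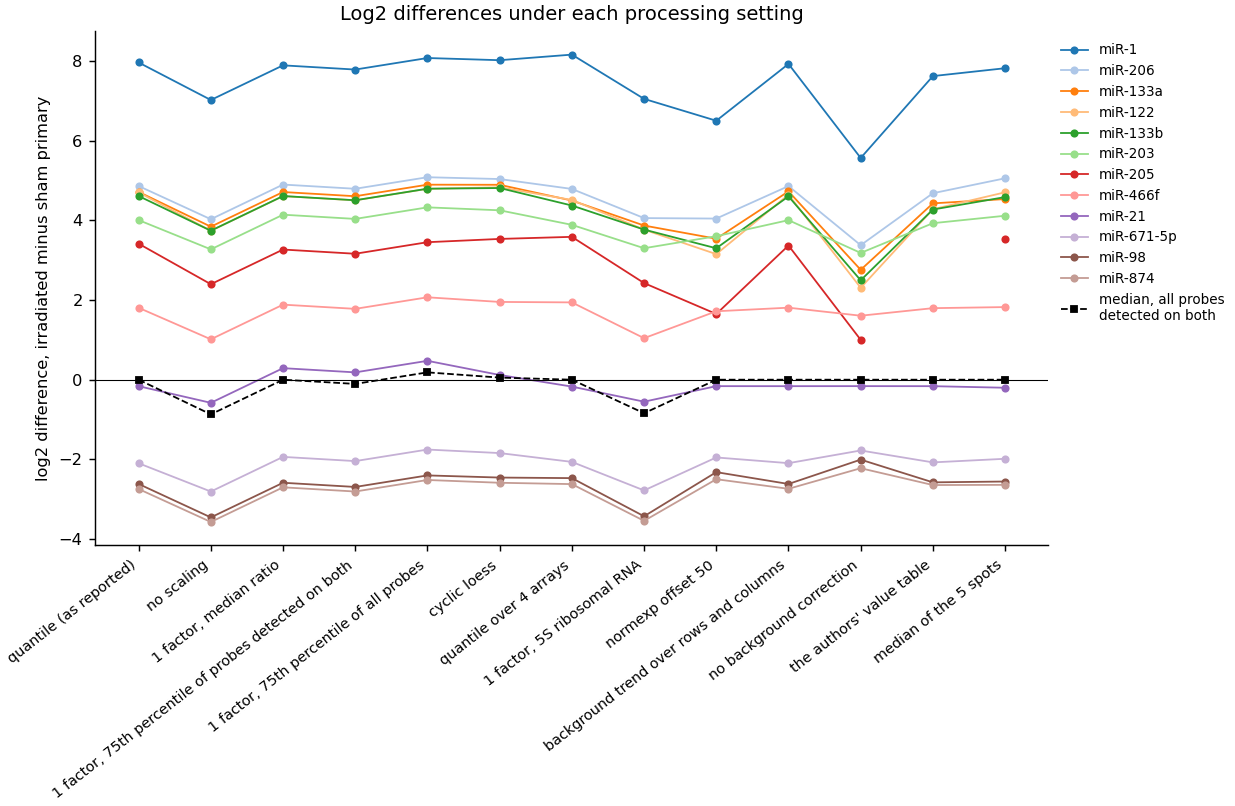
Log2 difference, irradiated minus sham primary, in metastases (y axis) of 12 microRNAs under 13 ways of processing (x axis; quantile scaling is the one reported); each line is a microRNA and the black squares are the median of all microRNAs detected on both arrays. The 7 highest stay above 1 where they have a value, and miR-98, miR-874 and miR-671-5p stay below -1 throughout, while miR-21 lies on both sides of 0 and the median of all falls to -0.87 without scaling.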

How the data were processed

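Total RNA (2 µg) was tailed, ligated to a tag, stained with Cy3 and hybridised on microfluidic chips at a service provider, per the labels' protocols. The authors deposited 1 scanner table per array with the mean intensity of each of 3968 spots, per the file headers. The scale is linear and the background had not been subtracted. Commas between digits were removed. Their other columns were not used. A value table deposited by the authors holds background-subtracted intensity for 590 probes of the irradiated and 354 of the sham metastases array, as found by comparison with the scanner tables (Pearson 0.999975 and 1), and served as an alternative. The scanner software is not given in the sources used here.

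Spots were corrected with the median empty spot, averaged over 5 spots, quantile scaled over 700 microRNA probes of the 2 arrays and compared on the log2 scale (Python 3.11.15, numpy 2.4.6, pandas 2.3.3). Normexp with an offset of 50 and cyclic loess (limma 3.58.1 in R 4.3.3) were alternatives, as were other scalings, backgrounds, detection limits and a 1.5-fold limit. The error was carried from the 5 spots of each array by the delta method. The code was tested on simulated data. Intensity gives no read depth, and the number of arrays limits the precision.

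The microRNAs and the 21 lists were chosen with earlier results of these data known. Named were the 10 brightest, the 12 highest and 12 lowest differences detected on both arrays with separate spots, the 4 largest bounds each way, miR-21 and its passenger strand, and of each list its detected members or, where more than 4 were detected, the 4 brightest. Others named, such as miR-574-5p, miR-1187, miR-10b, miR-30e, undetected list members and controls, were picked after their values were seen. Names are those of the array; 538 of 700 targets matched a RefSeq mature sequence.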

Additional observations from a re-analysis of the deposited data

Results flagged for a closer look

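Of the microRNAs that were at least 2-fold apart at both sites with separate spots, 6 had opposite directions in metastases and in the primary tumour. Others had the same direction at both sites, among them miR-1, miR-133a, miR-133b, miR-874, miR-1956, miR-671-5p, miR-714 and miR-292-5p, and their full number is not given here. The miR-466 probes among the 6 have close sequences and are not separate observations. The difference between the sites was not tested, since each arm and site has 1 array. In metastases, irradiated minus sham arm, the log2 difference was 4.86 for miR-206, and in the primary tumour it was -1.22. For miR-466f it was 1.80 in metastases and -3.76 in the primary tumour. For miR-466f-5p the values were 1.68 in metastases and -4.08 in the primary tumour. The values of miR-466h were 1.06 in metastases and -4.47 in the primary tumour, and those of miR-466j were 1.57 and -3.36. In the other direction, miR-698 had -1.46 in metastases and 2.15 in the primary tumour, where the unscaled value was 0.75, and over 13 settings its value in metastases lay between -2.50 and -0.46. Of the others, miR-466f-5p, miR-466h and miR-466j were also under 2-fold in metastases without scaling, at 0.69, 0.29 and 0.66.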

How the results depend on the processing

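No paired analysis was possible because each group has a single array. The counts, 44 higher and 50 lower after an irradiated primary, depended on the scaling and the background. Without scaling they were 9 and 227, with 5S ribosomal RNA as the scale 10 and 218, with normexp 13 and 11, without background correction 11 and 9, and they were 23 and 31 with the values the authors had processed. Requiring 5 of 5 spots gave 21 and 21, a 1.5-fold limit 77 and 114, and separate spots 18 and 22. Quantile scaling over 4 arrays gave 78 lower and the 99th percentile of the empty spots 33 lower. With 5 of 5 spots, 203 microRNAs were detected in the irradiated arm, against 339, and 202 on both arrays, against 317. The muscle list's median above that of all microRNAs was 3.06 without background correction, against 4.78. No microRNA named turned from at least 2-fold one way to the other under the settings tried. The median of all microRNAs was shifted to -0.87 without scaling, -0.84 with the 5S scale, -0.11 and 0.18 with the 75th percentile over microRNAs detected on both arrays and over all. Below 100 units the spots of the irradiated arm scatter by a median of 82.1%.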

Other observations

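Pairs of microRNAs of the same length that differ in at most 2 bases, the let-7 and miR-98 case among them, were set side by side after the values had been seen. In 29 of 42 such pairs detected on both arrays the member that was dimmer on the sham array had the lower log2 difference, irradiated minus sham arm, and the median gap was -0.15, with a range of -2.62 to 1.16. In the 16 pairs with a brightness gap of at least 2-fold on the sham array it was 13, with a median gap of -0.50. Pairs share members, so they are not independent. In 5 bins by sham level, from dimmest to brightest, the unscaled median log2 difference was -0.61, -0.92, -1.20, -1.11 and -0.83, and after quantile scaling it was 0.39, 0.18, -0.26, -0.24 and -0.04.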
